A study of Mus musculus with 30 samples.

Results

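Genes of dendritic cells, of Langerhans cells and of the MHC class II antigen-presentation machinery were followed through a wave of phorbol ester-induced inflammation in mouse back skin. The members are 10 genes: Cd207, Itgax, Cd83, Cd86, H2-Aa, H2-Ab1, H2-Eb1, Cd74, Ciita and H2-DMa. They were found by their gene symbol, and 18 of the 45101 probe sets on the array, which names 22121 gene symbols, carried one of them. Cd207, Itgax, Cd83, H2-Eb1 and Cd74 each had a single probe set, and where a gene had several, the brightest stands for it below unless another is named.

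The study compared wild-type (WT) mice with mice lacking D6 (D6 KO), an atypical chemokine receptor that takes up and degrades inflammatory CC chemokines. All mice were 129–C57BL/6 females aged 8 to 12 weeks. The shaved back skin received 3 applications of TPA, a phorbol ester dissolved in acetone, at 50 µM and 24 h apart, and was collected at day 1, 2, 4 or 6. The day 0 skin of both genotypes received no TPA; the titles call it untreated and the descriptions call it acetone-treated. Each of the 10 genotype-by-day groups had 3 arrays, 1 mouse to an array, so that different mice were sampled on each day. Whole skin was measured, in which fewer cells of a type and less RNA per cell cannot be told apart.

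The arrays were similar in overall brightness, with medians of 5.64 to 5.80 on the log2 scale, and arrays of 1 group correlated at 0.972 to 0.994. The D6 gene itself was lower in every D6 KO array than in every WT array at 1 of its 3 probe sets, with log2 levels of 3.30 to 3.86 in D6 KO and 4.15 to 5.76 in WT. The other 2 D6 probe sets overlapped between the genotypes. At the 13 probe sets of the MHC class II members some arrays stood to one side of their group, which touches the values of those days below. D6 KO array 3 of day 6 was the highest of its group at all 13, WT array 3 of day 1 and WT array 2 of day 2 were the lowest at all 13, and D6 KO array 1 of day 0 and array 2 of day 2 were the lowest at 12. WT array 2 of day 0 was the highest at 12.

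MHC class II molecules present peptides from internalised protein to CD4+ T cells. Their alpha and beta chains are assembled with the invariant chain, encoded by Cd74, and later exchange its remnant for a peptide with the help of H2-DM. Transcription of all of these genes depends on Ciita, the class II transactivator, which is recruited to a conserved promoter module containing an X box and a Y box. In skin the main carriers of class II are the Langerhans cells of the epidermis, marked by langerin (Cd207), and the dendritic cells and macrophages of the dermis. On activation, dendritic cells raise the co-stimulatory molecule CD86 and the maturation marker CD83, and travel to lymph nodes under the control of the chemokine receptor CCR7.

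Promoters of 3 class II genes that held a match to a short motif of the Y box, and in H2-Eb1 also of the X box, are printed, with the matches marked. One of the genes, H2-DMb1, is not a member, and the probe set quoted for it below is shared with H2-DMb2. RefSeq promoters on GRCm38.p6 were given for 5 of the 10 members. The 150 bases upstream of the annotated start follow, read 5′ to 3′ on the gene's own strand, with capitals marking each match to CCAAT (or its reverse complement ATTGG), the core of the Y box, and to AGCAAC (or GTTGCT), found in X boxes. H2-Aa lies on the minus strand and its window is chr17:34287824-34287973. H2-Eb1 (chr17:34305717-34305866) and H2-DMb1 (chr17:34153041-34153190), which encodes the partner chain of H2-DMa, lie on the plus strand.
H2-Aa: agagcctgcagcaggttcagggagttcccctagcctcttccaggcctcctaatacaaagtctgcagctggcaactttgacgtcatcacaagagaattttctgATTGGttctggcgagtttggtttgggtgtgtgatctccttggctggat
H2-Eb1: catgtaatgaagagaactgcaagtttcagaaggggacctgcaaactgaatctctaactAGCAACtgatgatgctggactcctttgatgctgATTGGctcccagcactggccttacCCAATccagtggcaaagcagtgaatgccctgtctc
H2-DMb1: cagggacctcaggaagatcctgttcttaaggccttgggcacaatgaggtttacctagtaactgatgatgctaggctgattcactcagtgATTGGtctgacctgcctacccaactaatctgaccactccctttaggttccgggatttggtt

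Counting the base before the start as -1, the ATTGG match began at -48 in H2-Aa and at -61 in H2-DMb1. In H2-Eb1 it began at -59, with a further, CCAAT-oriented match at -35 and the AGCAAC match at -92. CCAAT on either strand occurred in the same window of 24.5% of the 32851 promoters in the table and AGCAAC in 7.75%, so a match by itself is common. The windows of Cd207 and of the 2 promoters given for H2-DMa held neither motif, and that of Itgax held AGCAAC alone, at -135. A gamma-activated site, searched as TTCNNNGAA, occurred in 4.09% of all windows and in none of those described here.

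**Figure D1:**
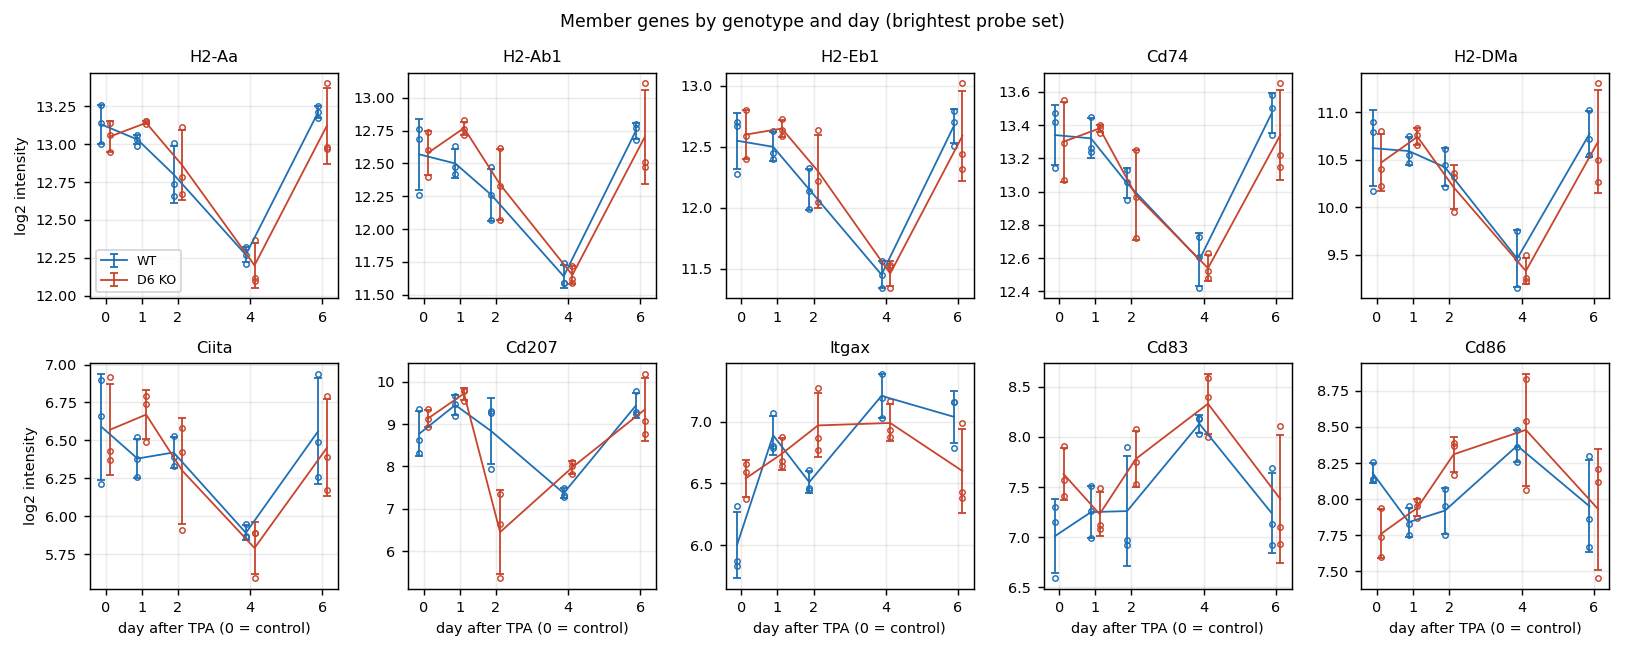
Log2 intensity of each of the 10 member genes (y axis) against day after TPA (x axis, day 0 being the controls), in WT and D6 KO skin. Points are single arrays, lines join the means of 3 arrays and bars are SD. The 6 class II genes dip at day 4 in both genotypes and return by day 6, while Cd207 in D6 KO skin is lowest at day 2.

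The class II genes fell together at day 4 in both genotypes and had returned by day 6. H2-Aa, the alpha chain of I-A, read 13.00, 13.26 and 13.14 on the 3 WT control arrays and 12.21, 12.27 and 12.32 on the 3 WT arrays of day 4. In D6 KO skin it read 12.95, 13.14 and 13.06 in the controls and 12.37, 12.12 and 12.10 at day 4. The day 4 arrays of either genotype thus lay below all of that genotype's control arrays. The fitted log2 difference from day 0 was -0.87 ± 0.12 (SE) in WT, 1.82-fold lower, with an adjusted p of 4.4e-06 (limma). In D6 KO it was -0.85 ± 0.12, 1.80-fold lower, with an adjusted p of 4.2e-06. A probe set is said to have risen, fallen or passed where its adjusted p in that fit was under 0.05.

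The beta chains followed the alpha chain. H2-Ab1, the I-A beta chain, had control levels of 12.26 to 12.76 in WT and 12.40 to 12.74 in D6 KO, against 11.59 to 11.74 and 11.59 to 11.72 at day 4. It fell by 0.93 on the log2 scale in each genotype (SE 0.16 in both, adjusted p 4.5e-05 in WT and 3.3e-05 in D6 KO). H2-Eb1, the I-E beta chain, read 12.28, 12.70 and 12.67 in WT controls and 11.45, 11.56 and 11.34 at day 4. Its D6 KO controls read 12.40, 12.80 and 12.59, and the D6 KO arrays of day 4 read 11.53, 11.34 and 11.51. H2-Eb1 was 2.14-fold lower in WT (log2 difference -1.10 ± 0.16, adjusted p 9.9e-06) and 2.20-fold lower in D6 KO (-1.14 ± 0.16, adjusted p 4.8e-06).

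The genes that act on the assembled chains fell as well. Cd74, the invariant chain, had control levels of 13.14 to 13.47 in WT and 13.07 to 13.55 in D6 KO and day 4 levels of 12.42 to 12.73 and 12.48 to 12.63. The log2 difference was -0.76 ± 0.14 in both genotypes, with adjusted p values of 1.6e-04 in WT and 1.3e-04 in D6 KO. H2-DMa, a chain of the peptide exchange factor, fell by 1.16 in WT (SE 0.22, adjusted p 1.9e-04) and by 1.14 in D6 KO (SE 0.22, adjusted p 2.0e-04). A dimmer H2-DMa probe set, 1459872_x_at, fell at day 4 too and was the only class II probe set already lower at day 2 in D6 KO (-0.84 ± 0.22, adjusted p 0.00344).

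Ciita, the transactivator of these genes, fell at the same time but from a low level, so its spread weighed more. The WT controls read 6.21, 6.90 and 6.66 and the WT arrays of day 4 read 5.86, 5.95 and 5.87. The D6 KO controls read 6.37, 6.43 and 6.92 and the D6 KO arrays of day 4 read 5.89, 5.89 and 5.59. The log2 difference was -0.70 ± 0.20 in WT (adjusted p 0.00663) and -0.78 ± 0.20 in D6 KO (adjusted p 0.00257). Without WT control array 2 the WT difference was -0.55 with an adjusted p of 0.0507, so the WT call rests on that array. The other Ciita probe set, 1421211_a_at, fell by 0.80 in D6 KO (SE 0.25, adjusted p 0.0107), a call lost without control array 3 or day 4 array 1 (adjusted p up to 0.0626). In WT it differed by -0.53 ± 0.25, which did not pass (adjusted p 0.0904).

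Counted over the 6 class II genes, all 13 probe sets had a lower mean at day 4 than at day 0 in both genotypes, and 12 of them passed in WT and 13 in D6 KO. The median of the 6 genes was -0.90 in WT and -0.89 in D6 KO, where the median of all 36029 tested probe sets was 0.006 and 0.007. Across the array 21.8% of tested probe sets passed as lower at day 4 in WT and 22.4% in D6 KO. Several of these probe sets carry the _x_at or _s_at suffix, which marks probes that can bind transcripts of related genes, and the class II chains are such a family.

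Earlier in the time course few class II probe sets passed. By day 2 the mean was nonetheless below day 0 at 12 of 13 probe sets in WT and 10 of 13 in D6 KO. The medians of the 6 genes were -0.30 and -0.26. In WT 2 H2-Aa probe sets passed as lower at day 2, with log2 differences of -0.33 ± 0.12 at the brightest (adjusted p 0.0443) and -0.49 at 1438858_x_at (adjusted p 0.0224). The brightest lost its call when any of 4 of the 6 arrays, namely control array 2 or 3 or day 2 array 1 or 2, was left out (-0.33 to -0.26, adjusted p up to 0.19), and 1438858_x_at lost its call without any of the same 4 (adjusted p up to 0.0816). At day 1, 3 probe sets were higher in D6 KO, namely H2-Ab1 1425477_x_at (0.76 ± 0.20, adjusted p 0.0045), H2-Ab1 1451721_a_at (0.58 ± 0.21, adjusted p 0.0358) and H2-Aa 1452431_s_at (0.54 ± 0.21, adjusted p 0.0496). The last 2 calls were lost without any 1 array other than D6 KO control array 2 (adjusted p up to 0.18 and 0.31). At the brightest probe sets the day 1 difference was 0.19 for H2-Ab1 and 0.09 for H2-Aa, and neither passed.

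Between day 4 and day 6 the fall was undone. These comparisons of successive days were added after the values had been seen. The day 6 mean was above the day 4 mean at all 13 class II probe sets in both genotypes, and 12 of 13 passed as higher in each, against 12.1% of all tested probe sets in WT and 16.8% in D6 KO. H2-Aa rose by 0.94 ± 0.12 in WT (adjusted p 3.2e-06) and by 0.92 ± 0.12 in D6 KO (adjusted p 2.6e-06). H2-DMa showed the widest recovery of the 6 brightest probe sets, 2.47-fold in WT and 2.57-fold in D6 KO. Ciita rose by 0.67 in WT (adjusted p 0.0158) and by 0.66 in D6 KO (adjusted p 0.0127). The Ciita call was lost in WT without day 4 array 3 or day 6 array 1 (0.66 and 0.48, adjusted p 0.0527 and 0.12), and in D6 KO without array 3 of either day (0.56 and 0.49, adjusted p 0.0603 and 0.0789).

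The fall itself took place largely between day 2 and day 4, when 10 of 13 class II probe sets fell in WT and 10 of 13 in D6 KO. Over all tested probe sets the share that fell was 7.39% in WT and 8.54% in D6 KO. H2-Aa fell by 0.53 in WT (adjusted p 0.00311) and by 0.66 in D6 KO (adjusted p 3.9e-04). At the brightest probe sets the calls of H2-Aa, H2-Eb1 and H2-DMa held whichever array was left out, and Ciita did not pass in either genotype. The Cd74 call was lost in 4 of 6 such fits in each genotype (adjusted p up to 0.15 in WT and 0.21 in D6 KO). Several other WT calls were also lost without 1 array. In the order of the 10 group means the 2 day 4 groups were the lowest for each of the 6 genes. Most neighbours in that order had overlapping arrays, from 7 of 9 neighbouring pairs for H2-Aa to 9 of 9 for Cd74 and Ciita.

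No class II probe set passed between the genotypes on any of the 5 days. The differences nonetheless ran one way on some days. At day 1 all 13 probe sets had a higher mean in D6 KO, by 0.03 to 0.49. These 13 probe sets read 6 genes in the same mice and are not independent. WT array 3 of day 1 was the lowest of its group at all 13. The change to day 1 was higher in D6 KO at 12 of 13. At day 6 all 13 had a lower mean in D6 KO, by between -0.36 and -0.05, and the arrays overlapped at every one. At day 4 the D6 KO minus WT difference was -0.07 ± 0.12 for H2-Aa, 0.00 ± 0.16 for H2-Ab1, 0.01 ± 0.16 for H2-Eb1 and -0.13 ± 0.22 for H2-DMa. At day 2, when the genotypes differed most over the whole array, the difference was 0.05 ± 0.12 for H2-Aa and 0.15 ± 0.16 for H2-Eb1. A p that misses the threshold does not show equality, and these standard errors set the size of difference that 3 mice a group could resolve.

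Langerin and 1 of the 2 Cd86 probe sets were the members that passed between the genotypes. In WT skin Cd207, the C-type lectin that forms the Birbeck granules of Langerhans cells, read 8.32, 9.36 and 8.63 in the controls, 9.26, 7.93 and 9.32 at day 2, and 7.33, 7.49 and 7.28 at day 4. In D6 KO skin it read 9.12, 9.35 and 8.94 in the controls, 7.34, 5.36 and 6.65 at day 2, and 8.11, 7.82 and 8.02 at day 4. All 3 D6 KO arrays of day 2 lay below all 3 WT arrays of that day, and the WT arrays of days 0 and 2 overlapped. The WT low point therefore came at day 4 and the D6 KO low point at day 2.

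In D6 KO skin Cd207 was 6.42-fold lower at day 2 than at day 0 (log2 difference -2.68 ± 0.39, adjusted p 8.4e-06). The WT difference over the same days was 0.06 ± 0.39 and did not pass. D6 KO skin was 5.22-fold lower than WT skin at day 2 (-2.38 ± 0.39, adjusted p 4.1e-04), and the change from day 0 differed between the genotypes by -2.75 ± 0.55 (adjusted p 0.00344). All 3 calls held whichever array was left out, with the genotype difference between -2.84 and -1.84. By the methods' t-test after Benjamini-Hochberg adjustment neither the genotype difference (adjusted p 0.29) nor the difference of changes (adjusted p 0.10) passed. The arrays were divided by their hybridization controls into 2 sets, a number fixed beforehand, with 17 arrays in the high and 13 in the low set. The genotype difference at day 2 was -1.98 within the high set (1 D6 KO array against 2 WT) and -2.90 within the low set (2 against 1). These few arrays describe the difference and do not test it.

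From day 2 to day 4 Cd207 moved in opposite directions. It fell by 1.47 in WT (SE 0.39, adjusted p 0.0116) and rose by 1.53 in D6 KO (SE 0.39, adjusted p 0.00792). The WT fall lost its call without day 2 array 1 or 3 (-1.25 and -1.22, adjusted p 0.0658 and 0.0769), and the D6 KO rise without day 2 array 2 (0.99, adjusted p 0.0933). Against day 0, the day 4 difference was -1.40 ± 0.39 in WT (adjusted p 0.00611) and -1.15 ± 0.39 in D6 KO (adjusted p 0.0203). The D6 KO call was lost without control array 2 or day 4 array 2 (-1.05 and -1.07, adjusted p 0.0682 and 0.0662). At day 6 the arrays read 9.79, 9.29 and 9.24 in WT and 9.08, 8.76 and 10.19 in D6 KO. Cd207 had risen from day 4 by 2.07 in WT (adjusted p 3.9e-04) and by 1.36 in D6 KO (adjusted p 0.00964), a call that the latter lost without day 6 array 3 (0.94, adjusted p 0.0761).

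Itgax, the CD11c integrin chain carried by dendritic cells and by many macrophages, was higher than in the controls on all 4 days after TPA in WT and on days 2 and 4 in D6 KO. Its WT controls read 5.83, 5.87 and 6.32, and the WT arrays read 6.79, 7.07 and 6.80 at day 1 and 7.19, 7.39 and 7.03 at day 4. The D6 KO controls read 6.66, 6.59 and 6.37, above all of the WT controls, and the D6 KO arrays of day 4 read 6.93, 6.88 and 7.17. In WT Itgax was 1.85-fold higher at day 1 (adjusted p 3.8e-04), 2.30-fold at day 4 (log2 difference 1.20 ± 0.17, adjusted p 3.7e-06) and 2.05-fold at day 6 (adjusted p 1.1e-04). In D6 KO the difference was 0.45 ± 0.17 at day 4 (adjusted p 0.0302) and 0.43 ± 0.17 at day 2 (adjusted p 0.0426), and did not pass at day 1 (0.20, adjusted p 0.38) or day 6 (0.06, adjusted p 0.83). The D6 KO day 4 call was lost without control array 2 or 3 or day 4 array 3 (0.37 to 0.48, adjusted p up to 0.13). The D6 KO day 2 call was lost without control array 2 or 3 or day 2 array 1 or 3 (0.28 to 0.48, adjusted p up to 0.24). The WT rise of 0.50 at day 2 (adjusted p 0.0255) was lost without control array 1 or 2 or day 2 array 2 or 3 (0.42 to 0.53, adjusted p up to 0.12). No genotype difference in Itgax passed on any day, the nearest being 0.54 ± 0.17 at day 0 (adjusted p 0.10).

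Cd83, a surface marker of mature dendritic cells, peaked at day 4. It read 6.59, 7.30 and 7.15 in WT controls and 8.18, 8.19 and 8.03 at day 4, with no overlap. The D6 KO controls read 7.41, 7.57 and 7.91 and the day 4 arrays 8.59, 8.00 and 8.40. Cd83 was 2.17-fold higher at day 4 in WT (1.12 ± 0.28, adjusted p 0.00266) and 1.63-fold in D6 KO (0.70 ± 0.28, adjusted p 0.048). The D6 KO call was lost without control array 1 or 2 or day 4 array 1 or 3 (0.57 to 0.67, adjusted p up to 0.16). From day 4 to day 6 it fell by 0.89 in WT (adjusted p 0.0244) and by 0.96 in D6 KO (adjusted p 0.0113). The WT call was lost in 5 of the 6 fits with an array left out, all but that without day 6 array 1 (-0.94 to -0.73, adjusted p up to 0.11). The D6 KO call was lost without day 4 array 1 or day 6 array 1 or 2 (-0.83 to -0.73, adjusted p up to 0.0767).

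Cd86, the co-stimulatory ligand of CD28, was read by 2 probe sets that did not move alike. At 1449858_at the WT controls read 6.86, 7.34 and 7.47 and the WT arrays of day 4 read 8.77, 8.81 and 8.73. At the same probe set the D6 KO controls read 6.40, 7.09 and 6.54, the day 2 arrays 8.62, 8.60 and 8.43 and the day 4 arrays 8.50, 8.64 and 8.80. The level was thus near its highest by day 2 in D6 KO, whereas the WT arrays of day 2 read 7.89, 7.75 and 7.74. The brighter probe set, 1420404_at, spanned only 0.72 between its lowest and highest group mean.

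At 1449858_at the change from day 0 was 2.93-fold at day 4 in WT (1.55 ± 0.20, adjusted p 2.0e-06). WT skin had already passed as higher at day 1 (0.66, adjusted p 0.0196) and at day 2 (0.57, adjusted p 0.039). These 2 calls were lost in 3 and 5 of the 6 fits with an array left out (adjusted p up to 0.14 and 0.21). In D6 KO the change was 2.49-fold at day 1 (adjusted p 2.6e-05), 3.66-fold at day 2 (1.87 ± 0.20, adjusted p 1.5e-07), 3.93-fold at day 4 (adjusted p 4.0e-08) and 2.00-fold at day 6 (adjusted p 6.2e-04). The change to day 2 differed between the genotypes by 1.30 ± 0.29 (adjusted p 0.00699), a call that held in all 12 fits with an array left out. This value takes in the day 0 difference of -0.55 between D6 KO and WT, which did not pass. The D6 KO minus WT difference at day 2 was 0.75 ± 0.20 (adjusted p 0.0314), and it was lost when any of the 6 arrays of that day was left out (0.71 to 0.81, adjusted p up to 0.12). The brighter probe set gave a difference of changes of 0.80 ± 0.26, which did not pass (adjusted p 0.0676), and differed by 0.19 at day 4 in WT, which did not pass, and by 0.72 ± 0.18 in D6 KO (adjusted p 0.00243).

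**Figure D2:**
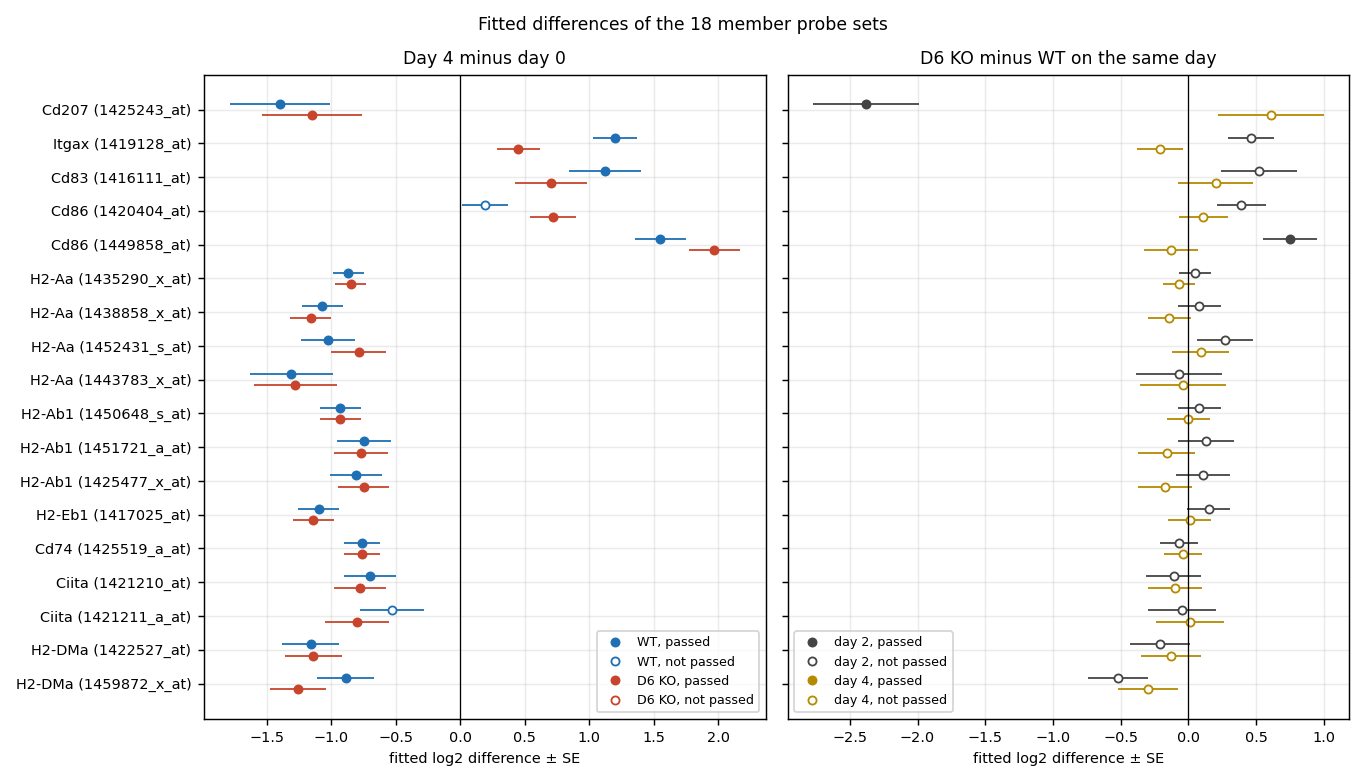
Fitted log2 differences (x axis, points, with SE as bars) of the 18 member probe sets (y axis), for day 4 minus day 0 in each genotype (left) and for D6 KO minus WT at days 2 and 4 (right), filled where the limma test passed and open where it did not. All 13 class II probe sets lie left of 0 at day 4, and between the genotypes only Cd207 and Cd86 1449858_at have filled points, both at day 2.

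Over the 18 member probe sets, 2 passed at day 1 in WT, both higher, and 4 in D6 KO, all higher, where 24% and 36.3% of all tested probe sets passed in either direction. At day 2 there were 2 higher and 2 lower in WT and 3 higher and 2 lower in D6 KO, against 26.1% and 38.1% of all tested. At day 4 there were 3 higher and 13 lower in WT and 4 higher and 14 lower in D6 KO, the shares of all tested that rose being 17.3% and 18.8%. At day 6 only Itgax passed in WT and only Cd86 1449858_at in D6 KO, against 22.1% and 31.7% of all tested, and 3 member probe sets had an unadjusted p under 0.05 in each genotype. From day 4 to day 6, 2 probe sets fell in WT (10% of all tested) and 3 in D6 KO (14.5% of all tested), and these were probe sets of Cd83 and Cd86.

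Between the genotypes, 2 of 18 member probe sets passed at day 2 (Cd207 lower and Cd86 1449858_at higher in D6 KO), against 4.45% of all tested. The same 2 passed for the difference of the change to day 2, against 5.4%. None passed by limma at day 0 (1.57% of all tested), day 1 (0.0555%), day 4 (0.513%) or day 6 (0.125%), with 4, 0, 0 and 1 probe sets at an unadjusted p under 0.05. The methods' t-test gave 2, 4, 2 and 0 at an unadjusted p under 0.05 on those days and none after adjustment. None passed for the difference of the change to day 1 (0.0194% of all tested), day 4 (0.608%) or day 6 (0.025%), with 2, 2 and 1 at an unadjusted p under 0.05 by limma and 14, 3 and 2 by the t-test. For a change, that t-test subtracted the median of each genotype's controls as a fixed value. The spread between control mice did not enter it, so its counts cannot be set against those of limma.

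The wider class II pathway did not fall as a whole. Its list, which leaves the members out, held 16 genes measured by 31 probe sets, among them the other class II loci, lysosomal proteases, and the RFX and NF-Y factors that bind the X and Y boxes. At day 4, 8 rose and 7 fell in WT and 4 rose and 10 fell in D6 KO, with a median of -0.04 in each, where 17.3% of all tested probe sets rose and 21.8% fell in WT and 18.8% and 22.4% in D6 KO. Lgmn, which encodes the lysosomal protease legumain, rose by 1.60 ± 0.16 in WT (adjusted p 3.0e-08) and by 1.81 ± 0.16 in D6 KO (adjusted p 2.9e-09). H2-Oa, a chain of the H2-DM inhibitor H2-O, fell by 0.99 in WT (SE 0.15, adjusted p 1.1e-05) and by 0.46 in D6 KO (adjusted p 0.0166). The lowest difference of the list was at 1 of 2 probe sets of the partner chain H2-Ob, picked out after its values were seen. It fell by 1.60 in WT (SE 0.27, adjusted p 4.9e-05) and fell by 2.00 in D6 KO (SE 0.27, adjusted p 2.4e-06). The other H2-Ob probe set differed by -0.29 and -0.27 and did not pass. The brightest probe set shared by H2-DMb1 and H2-DMb2, the partner chains of H2-DMa, fell by 0.81 in D6 KO (SE 0.22, adjusted p 0.00484) and by 0.67 in WT (adjusted p 0.0184). At day 2, 3 of the list were higher and 1 lower in D6 KO than in WT, against 4.45% of all tested in either direction. The higher ones included Lgmn (0.69 ± 0.16, adjusted p 0.00938) and Ctss, encoding cathepsin S, which trims the invariant chain (0.56 ± 0.12, adjusted p 0.00737).

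Some of the genes that connect interferon-gamma to Ciita rose on the day that Ciita fell. Of 11 tested probe sets from 6 genes, 6 rose and none fell at day 4 in WT, with a median of 0.51, and 7 rose and none fell in D6 KO, with a median of 0.42. Over all tested probe sets the share that rose was 17.3% in WT and 18.8% in D6 KO. No Jak1 probe set passed at day 4 in either genotype, and interferon-gamma itself was not among the tested genes. Socs1, a feedback inhibitor of the pathway, read 5.79, 5.90 and 6.04 in WT controls and 7.45, 7.35 and 7.22 at day 4. It rose by 1.43 ± 0.11 in WT (adjusted p 1.5e-09) and by 1.26 ± 0.11 in D6 KO (adjusted p 6.0e-09), and the arrays of days 0 and 4 did not overlap. Jak2, a kinase of the interferon-gamma receptor, rose by 0.90 ± 0.12 in WT and by 0.96 ± 0.12 in D6 KO. At day 2 none of the 11 probe sets passed between the genotypes by limma, with 1 at an unadjusted p under 0.05. Ciita at that day differed by -0.11 ± 0.20 between the genotypes.

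**Figure D3:**
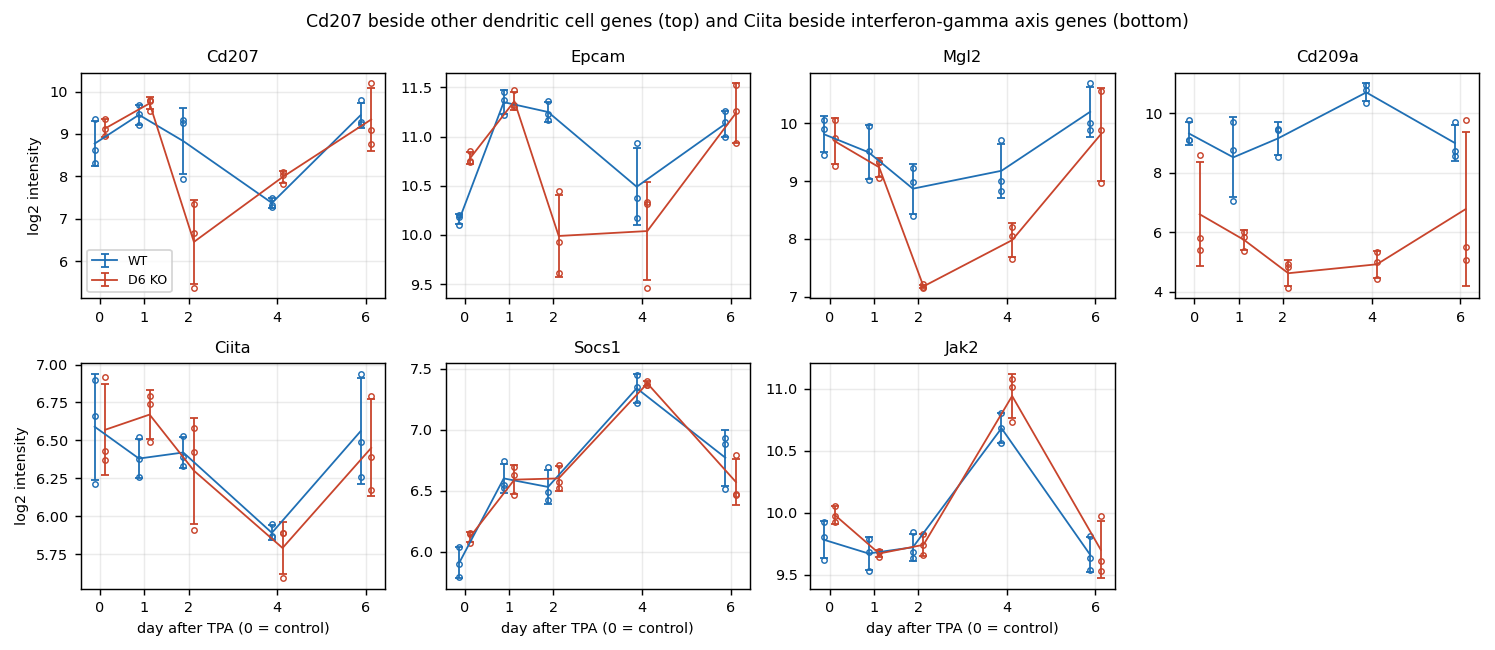
Log2 intensity (y axis) against day after TPA (x axis) for Cd207 beside other dendritic cell genes (top) and for Ciita beside genes of the interferon-gamma axis (bottom). Points are single arrays, lines join the means of 3 arrays and bars are SD. Socs1 and Jak2 are highest at day 4 in both genotypes, when Ciita is at its lowest.

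Markers of dendritic cell subsets went both ways between the genotypes at day 2. Of the list's 20 probe sets, 4 passed as lower and 1 as higher in D6 KO than in WT, against 4.45% of all tested in either direction. In the list 14 differences were negative and 6 positive, with a median of -0.17 against -0.016 over all tested probe sets. Mgl2, a lectin of dermal dendritic cells and macrophages, read 7.15, 7.22 and 7.17 in D6 KO and 9.23, 8.39 and 8.99 in WT (-1.69 ± 0.32, adjusted p 0.00191). Epcam, an adhesion molecule of Langerhans cells and of epithelial cells, read 10.45, 9.61 and 9.93 in D6 KO and 11.36, 11.17 and 11.23 in WT (-1.26 ± 0.21, adjusted p 4.6e-04). The change to day 2 differed between the genotypes by -1.88 ± 0.30 for Epcam (adjusted p 4.0e-04) and by -1.57 ± 0.46 for Mgl2 (adjusted p 0.0436). The probe set that passed as higher at day 2 was 1 of 2 for Irf8, a transcription factor of conventional type 1 and plasmacytoid dendritic cells (0.56 ± 0.16, adjusted p 0.0488). For the change to day 2 it was that of Siglech, a surface marker of plasmacytoid dendritic cells (1.21 ± 0.33, adjusted p 0.029). Both were picked out after their values were seen.

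Cd209a, a DC-SIGN homologue of monocyte-derived dendritic cells, was lower at day 2 in D6 KO (-4.52 ± 0.85, adjusted p 0.00157), but its difference of changes did not pass (-1.81 ± 1.20, adjusted p 0.50). It read 5.41, 5.81 and 8.61 in D6 KO controls and 9.10, 9.10 and 9.76 in WT controls. The D6 KO controls thus read lower before TPA, but unevenly, and the day 0 difference did not pass. D6 KO array 3 of day 6 read 9.76, beside 5.51 and 5.08 on the other day 6 arrays of that genotype. In the dendritic cell subset list the lowest D6 KO minus WT difference was -5.77 at day 4, when 1 probe set passed, lower by more than 3-fold. At days 0, 1 and 6 the lowest differences of the list were -2.71, -2.77 and -2.22, and none passed. Irf4, a transcription factor needed by dermal dendritic cells, differed at day 4 by -2.02 ± 0.30 in WT (adjusted p 9.7e-06) and by -2.10 ± 0.30 in D6 KO (adjusted p 4.5e-06). In all, 3 of the 20 rose and 2 fell at day 4 in WT, and 5 rose and 5 fell in D6 KO. Of all tested probe sets 17.3% rose and 21.8% fell in WT, and 18.8% rose and 22.4% fell in D6 KO.

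Genes of dendritic cell maturation and migration rose at day 4 with Cd83 and Cd86. Of 21 probe sets from 12 genes, 17 rose and none fell in WT, with a median of 0.94, and 15 rose and 1 fell in D6 KO, with a median of 1.02. Of all tested probe sets 17.3% rose and 21.8% fell in WT, and 18.8% rose and 22.4% fell in D6 KO. Ccr7, the receptor that guides dendritic cells into lymphatics, read 4.74, 4.02 and 4.77 in WT controls and 9.04, 8.57 and 9.01 at day 4, and 5.12, 4.91 and 5.19 against 9.11, 8.29 and 9.05 in D6 KO. The difference was 4.37 ± 0.22 in WT (adjusted p 8.8e-13) and 3.75 ± 0.22 in D6 KO (adjusted p 6.8e-12). Ccl22, a chemokine made by mature dendritic cells, rose by 3.64 ± 0.26 in WT and by 2.90 ± 0.26 in D6 KO. At day 2 Ccl22 was lower in D6 KO than in WT (-0.95 ± 0.26, adjusted p 0.0315) and Cd274, encoding PD-L1, was higher (0.89 ± 0.20, adjusted p 0.00707).

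**Figure D4:**
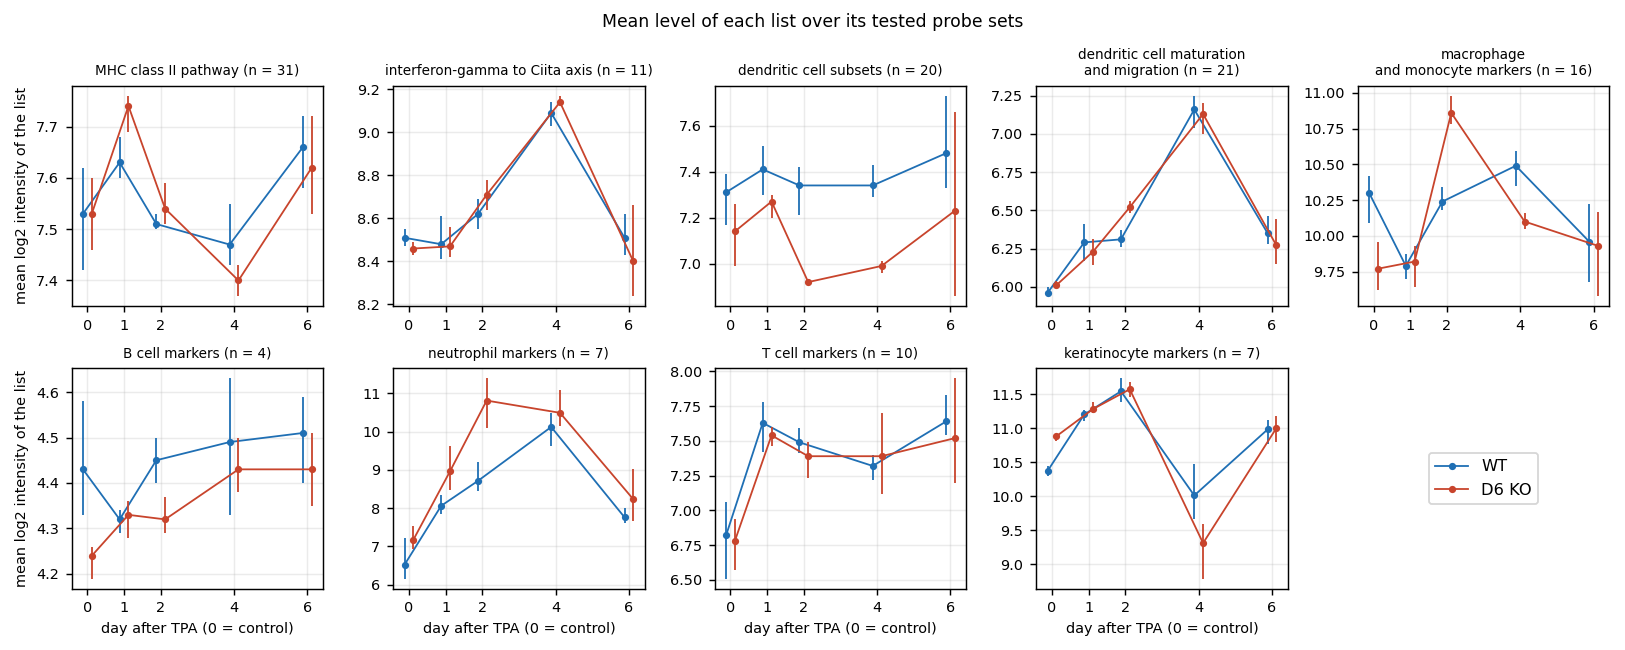
Mean log2 intensity over the tested probe sets of each list (y axis) against day after TPA (x axis), in WT and D6 KO skin. Lines join the means of 3 arrays and vertical bars run from the lowest to the highest array. The macrophage and neutrophil lists are highest in D6 KO at day 2, and the maturation list peaks at day 4 in both genotypes.

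Markers of other cells moved on the same days, and their part in the results above was not tested. At day 4, when class II fell, all 7 neutrophil probe sets were higher in D6 KO and 6 of 7 in WT, with medians of 3.59 and 3.61. The mean of this list over its probe sets ran from 6.16 to 7.23 on the WT control arrays and from 9.62 to 10.48 on the WT arrays of day 4. In D6 KO it ran from 6.93 to 7.54 in the controls and from 10.15 to 11.09 at day 4. Csf3r, the granulocyte colony-stimulating factor receptor, rose by 4.28 ± 0.25 in WT and by 4.52 ± 0.25 in D6 KO. Keratinocyte differentiation markers fell, with differences of -4.27 ± 0.42 in WT and -5.52 ± 0.42 in D6 KO for Krt10, a keratin of suprabasal cells. Of the 7 keratinocyte probe sets, 3 rose and 2 fell in WT and none rose and 3 fell in D6 KO. Beside both lists, 17.3% of all tested probe sets rose and 21.8% fell at day 4 in WT, and 18.8% and 22.4% in D6 KO.

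Macrophages and B cells also carry class II. Of 16 macrophage and monocyte probe sets, 6 rose and 5 fell at day 4 against day 0 in WT and 7 rose and 5 fell in D6 KO. Of all tested probe sets 17.3% rose and 21.8% fell in WT, and 18.8% rose and 22.4% fell in D6 KO. The same shares apply to the B cell and T cell counts below, which also compare day 4 with day 0. From day 2 to day 4, when most of the class II fall took place, 6 macrophage and monocyte probe sets rose and 4 fell in WT, with a median of 0.08, whereas in D6 KO 1 rose and 12 fell, with a median of -0.96. Between those days 7.39% of all tested probe sets fell in WT and 8.54% in D6 KO, and 2578 and 2797 of the 36029 rose. The mean of the macrophage and monocyte list ran from 10.09 to 10.42 on the WT control arrays and from 10.35 to 10.59 at day 4, and from 9.62 to 9.96 and 10.05 to 10.16 in D6 KO. Of 4 B cell probe sets, 1 rose in WT (Cd79a) and 1 in D6 KO (Cd79b), and none fell, with list means of 4.19 to 4.63 across the WT and D6 KO arrays of days 0 and 4, all below the median intensity of every array. Of 10 T cell probe sets, 6 rose and none fell in each genotype, with medians of 0.71 and 0.77.

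At day 2, when Cd207 was low in D6 KO, some macrophage, monocyte and neutrophil markers were higher in that genotype. Mgl2 and Cd209a, described above, were lower, and the neutrophil-list genes S100a8 and S100a9 did not pass (0.10 each). Of the 16 macrophage and monocyte probe sets, 5 were higher and none lower than in WT, with a median difference of 0.47. Over all tested probe sets 4.45% passed in either direction. The list had stood lower in D6 KO before TPA, with all 16 differences negative at day 0 and a median of -0.52. Of these, 4 passed, against 1.57% of all tested in either direction. The difference of the change to day 2, which takes in that baseline, had a median of 1.05, with 11 probe sets higher and none lower, against 5.4% of all tested in either direction. Fcgr1, the high-affinity IgG receptor of monocytes and macrophages, read 10.42, 9.64 and 10.20 in D6 KO and 8.06, 7.98 and 7.80 in WT (2.14 ± 0.24, adjusted p 2.6e-06). The list mean was 10.78 to 10.98 on the D6 KO arrays of day 2 and 10.18 to 10.34 on the WT arrays. Of the 7 neutrophil probe sets, 5 were higher and none lower, with a median of 1.71. None of the 10 T cell, 4 B cell and 7 keratinocyte probe sets passed between the genotypes at day 2 by limma, with 1, 1 and 0 at an unadjusted p under 0.05.

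Genes outside the members were searched for profiles like those of the class II genes over the 10 group means. The search covered 8289 probe sets that named 1 gene and whose group means spanned at least 1 log2 unit. Members and probe sets shared by several genes were left out, so other class II probe sets were largely kept from appearing. The profiles were compared with the mean profile of H2-Aa, H2-Ab1, H2-Eb1, Cd74 and H2-DMa. Pearson's r was 0.994 for Apcdd1, an inhibitor of Wnt signalling, 0.983 for Col16a1, a collagen chain, 0.980 for Znrf3, another Wnt inhibitor, and 0.978 for Apoe, the lipid carrier. Zfp606 and Scarf2 reached 0.982, Rhbdl1 0.981 and Robo1 0.980. Apcdd1 had group means of 11.24 at day 0, 9.72 at day 4 and 11.38 at day 6 in WT, and 11.17, 9.86 and 11.26 in D6 KO. For Cd207 the most alike was Bmp4, a growth factor of the TGF-beta family, at 0.948, with means of 8.00 in WT and 6.98 in D6 KO at day 2, followed by Fcgbp at 0.919, Lpar3 at 0.918, Ctnnbip1 at 0.916 and Mfsd4 at 0.910. These coefficients describe 10 means that share arrays and normalization.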

How the data were processed

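RNA from whole back skin of 30 mice was hybridized to Affymetrix mouse whole-genome arrays, 1 mouse to an array. The deposited values are intensities on a linear scale; the authors made them in GeneSpring GX by RMA (background correction, quantile normalization and summarization of probes), and log2 was taken here. The number of arrays limits the precision. A second deposited text held only sample descriptions and was not used.

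Control probe sets (64) and the lowest 20% by mean were left out, which left 36029 of 45037 probe sets, all 18 of the members among them. One mean per genotype and day was fitted over all 30 arrays with limma 3.58.1 in R 4.3.3 (lmFit, eBayes), with Benjamini-Hochberg adjustment over all tested probe sets and a threshold of 0.05. Scripts were tested on simulated data. An exact permutation test of 3 against 3 cannot go below 0.1 and was not used. P-values measure the spread between mice of a group, except that the methods' t-test of a difference of changes leaves out the spread between control mice.

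Every member probe set was described, with at most the 3 genes of largest change per list and contrast, and the genes with the most similar profiles. Members and lists (class II pathway, interferon-gamma to Ciita axis, dendritic cell subsets, maturation and migration, macrophage, neutrophil, B cell, T cell and keratinocyte markers) were chosen with earlier results of these data known. Some genes of these lists are not reported here and were left out of the list counts and means. Alternatives were a limit of 3-fold, the methods' t-test, no filter on dim probe sets, only the arrays of a contrast, a replicate block, the hybridization control set as a covariate, median centring, the mean of a gene's probe sets, and leaving out each array. The replicate numbers of the titles name arrays and do not link mice between groups.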

Additional observations from a re-analysis of the deposited data

Results flagged for a closer look

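Both results that stood out were differences between the genotypes in the change to day 2. Cd207 differed by -2.75 on the log2 scale, with a change of 0.06 in WT and -2.68 in D6 KO. Cd86 at probe set 1449858_at differed by 1.30, with a change of 0.57 in WT and 1.87 in D6 KO, while the brighter Cd86 probe set gave 0.80 and did not pass (adjusted p 0.0676). These differences take in the controls: D6 KO minus WT was 0.37 at day 0 and -2.38 at day 2 for Cd207. For Cd86 1449858_at it was -0.55 at day 0 and 0.75 at day 2. Both results were found by the limma test of the difference of changes.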

How the results depend on the processing

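Of 59 member gene values, none changed direction in the 740 values computed under alternatives, and 110 of these no longer passed. Counts of member probe sets moved most with the threshold. With a limit of 3-fold beside the limma test, and equally with the methods' t-test at an unadjusted p and 3-fold, none were left in WT at day 1, 2, 4 or 6, in D6 KO at day 1 or 6, for day 4 against day 2 in either genotype or for day 6 against day 4 in D6 KO. The same limit left 2 in D6 KO at day 2, 1 in D6 KO at day 4, 1 between the genotypes at day 2, 1 for the change to day 2 and 2 for day 6 against day 4 in WT. The t-test with adjustment and no fold limit called 0 in WT at day 1, 2 and 6, in D6 KO at day 6, between the genotypes at day 2, and in D6 KO for day 4 against day 2 and day 6 against day 4. It called 1 in D6 KO at day 1, 3 at day 2 and 9 at day 4, 1 in WT for day 4 against day 2 and 9 for day 6 against day 4. Median centring gave 2 in WT at day 2 and 2 in D6 KO at day 6, and the hybridization control set as a covariate gave 2 in WT and 3 in D6 KO at day 6.

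Leaving out 1 array gave 1 to 2 in WT at day 1, 0 to 4 at day 2, 15 to 17 at day 4 and 1 to 2 at day 6. In D6 KO it gave 2 to 4, 3 to 7, 15 to 17 and 1 to 3 on those days. Between the genotypes it gave 0 at day 0, 1 and 4, 1 at day 2 and 0 to 1 at day 6, and for the change 0 to day 1 and 4, 2 to day 2 and 0 to 1 to day 6, the 1 at day 6 being without D6 KO array 3 of that day. For day 4 against day 2 it gave 6 to 13 in WT (6 without day 2 array 3, 7 without day 4 array 1) and 9 to 11 in D6 KO, and for day 6 against day 4 it gave 13 to 15 and 14 to 16. Equal replicate numbers did not link arrays: their deviations from the group means correlated at -0.35 to 0.48, and 12 of 30 arrays correlated best with their own number. With a replicate block 16 member probe sets passed at day 4 in WT and 18 in D6 KO, 2 between the genotypes at day 2 and 2 for the change to day 2. It moved no count by over 1.5 times. The comparisons of day 4 with day 2 and of day 6 with day 4 were chosen after seeing the data. Whole-skin intensities at 3 mice a group limit how small a difference could be resolved.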
